A study of Homo sapiens with 6 samples.

Results

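The genes described here were 51 named genes of the actin, myosin and filamin cytoskeleton, out of 38637 genes in the deposited expression table. They comprised the cytoplasmic actins, filamins, actinins, spectrins and plakins, myosin heavy and light chains, tropomyosins, the calponin family, cofilins and profilins, the gelsolin family, adhesion linkers, the ERM proteins, DIAPH1, CALD1 and FSCN1. The list was chosen from cytoskeletal genes with results of this comparison already known, so the calls given for its members describe them and are not independent evidence of a direction. All 51 members were found in the table and all 51 passed the filter on low values.

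The samples were OVCAR8 cells, an established human ovarian cancer cell line, wild type in all groups. Cells were treated for 72 h with DMSO, the solvent control, or with 2 nM pladienolide B (plaB), a small molecule that inhibits the splicing factor SF3B1, with 3 samples in each of the 2 groups. Polyadenylated RNA was sequenced, and pladienolide B against DMSO was the only comparison in the design. The labels do not say whether the 3 samples of a group were separate cultures, so the spread between them may be technical.

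Actin filaments are built from actin monomers and are organised by proteins that cross-link, cut, cap, bundle or stabilise them. Myosin II filaments pull on them to generate contractile force, and unconventional myosins carry membranes and other cargo along them. Talin, vinculin and zyxin connect the filaments to integrin adhesions, whereas ezrin, radixin and moesin connect them to the plasma membrane. Many cytoskeletal genes are known targets of serum response factor (SRF), which binds a DNA element called the CArG box together with cofactors that sense free actin monomers.

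The deposited values were the authors' adjusted reads per gene, scaled to a common library size. The whole reads recovered from them summed to between 22621338 and 26130882 per sample on genes, and 22005 to 22987 genes had at least 1 read. Of 10 ovarian cancer epithelium markers, 10 had a mean of at least 10 adjusted reads, with PAX8 between 4011 and 4581 and WT1 between 13.0 and 33.8 in the 6 samples. So had 5 of 8 smooth muscle, 4 of 9 fibroblast, 4 of 6 endothelial and 3 of 8 leukocyte markers. The epithelium list summed to 80796 to 86686 in DMSO and 81243 to 96604 with treatment, mostly from KRT8 and KRT18. Of its genes 5 were called, KRT7 and MSLN lower and KRT8, KRT18 and CDH1 higher. Summed leukocyte markers (8 genes) ranged from 1148 to 1301 in DMSO and 1542 to 1637 with treatment, mostly from CD68, with CD3E at 0 in all samples and PTPRC at 2 or fewer. Summed smooth muscle markers (8 genes) ranged from 3557 to 3728 in DMSO and 3994 to 4202 with treatment, mostly from SMTN, with MYOCD, the smooth muscle cofactor of SRF, at about 2 or fewer. SMTN and DES were called higher, DES with a mean of 26 in DMSO and 71.1 with treatment, a log2 difference of 1.42. The fibroblast list (9 genes) summed to 6985 to 7163 against 5926 to 6589, mostly COL1A1, with DCN at 0 in DMSO, and the endothelial list (6 genes) to 74.0 to 93.7 against 116 to 131. Of the leukocyte, fibroblast and endothelial genes, CD68 was called higher and COL1A1 and PDGFRB lower. The part of these shifts in the results below was not tested. Samples differed in their dependence on transcript length, DMSO replicate 2 the most. Across 5554 genes with a mean of at least 1000 adjusted reads, Spearman's correlation between transcript length and a gene's deviation from its group mean was −0.40 in that sample, against 0.33 and 0.29 in DMSO replicates 1 and 3. In pladienolide B it was −0.21, 0.12 and 0.06 in replicates 1, 2 and 3. Deviations from a mean of 3 samples are tied to each other, so the values within a group are not independent. The genes share their libraries, so these values are descriptions. In bulk RNA, fewer cells and less RNA per cell cannot be told apart.

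On balance, the 51 chosen members were lower in pladienolide B. A gene was called where limma's Benjamini-Hochberg adjusted p was below 0.05 on log2(adjusted reads + 1), and differences below are pladienolide B minus DMSO on that scale, given ± SE with n = 3 per group. Of the 51 members, 35 were called, 28 of them lower and 7 higher, and 16 were not called. Over the 16178 genes tested, 47.6% were called, 25.2% lower and 22.4% higher. Among the 5593 genes with a mean of at least 1000 adjusted reads, where 46 of the members lay and 32 of those were called, the share called was 62.5%. Values did not overlap between groups for 39 members (29 below and 10 above DMSO), compared with 55.3% of all tested genes. These shares are printed as background, and nothing is read from them since the members were chosen from this contrast. The median log2 difference was −0.15 over the members and −0.004 over all tested genes. Summed over the members, the share of adjusted reads was 3.0% ± 0.024 (SD, n = 3) in DMSO and 2.65% ± 0.021 in pladienolide B.

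**Figure D1:**
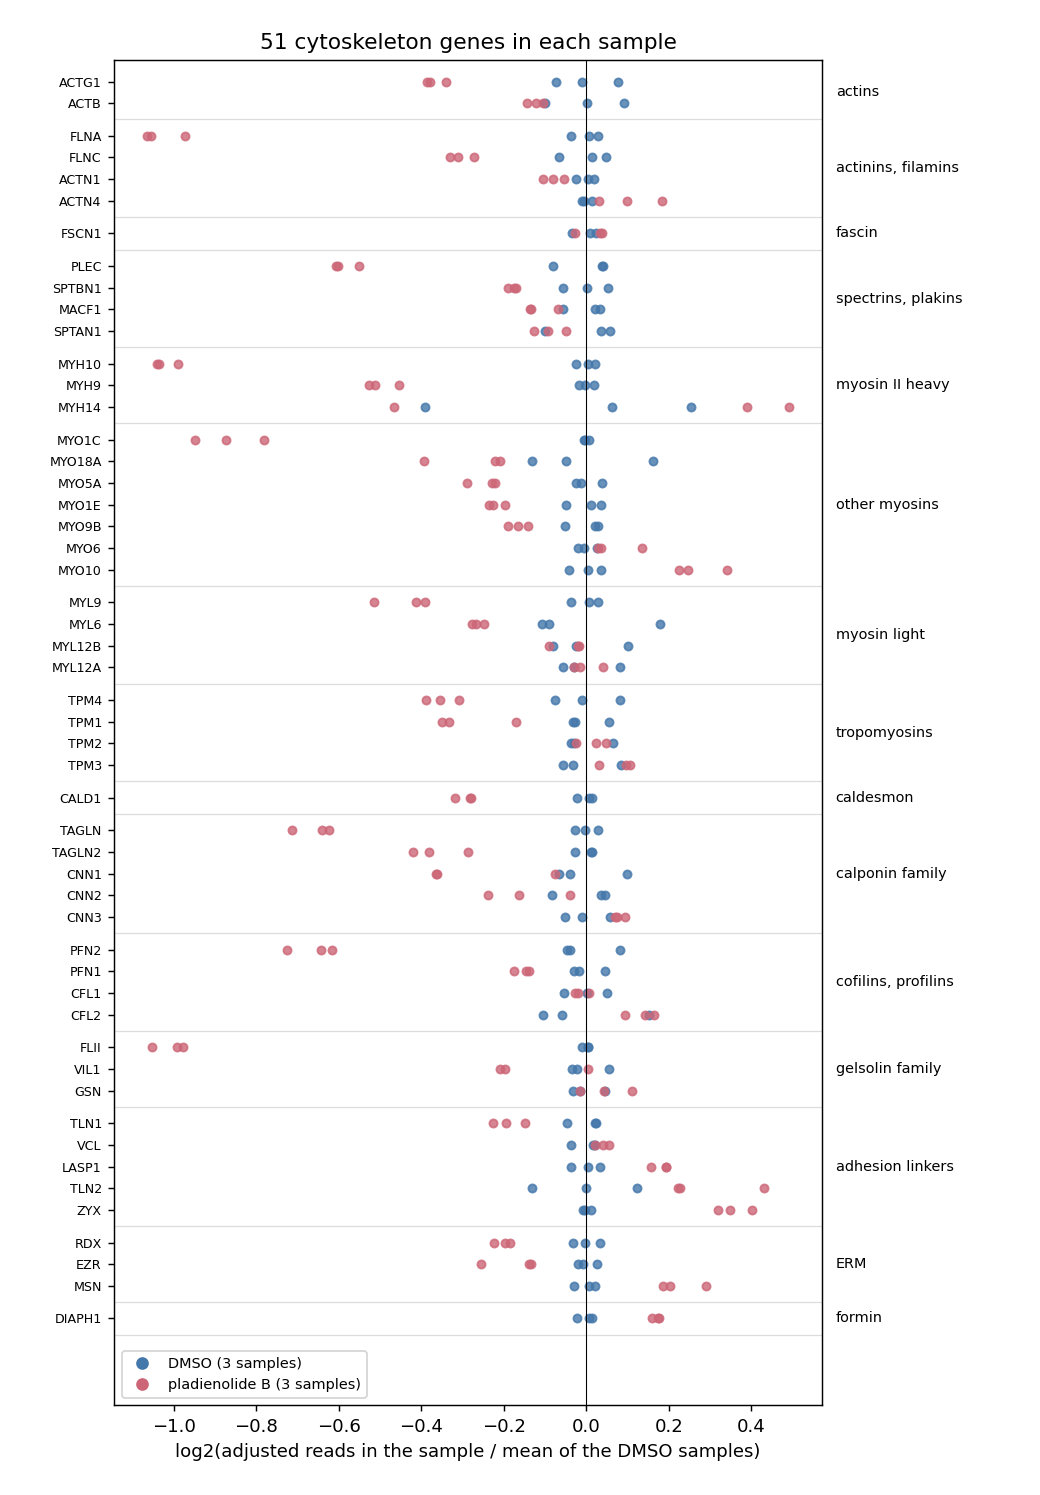
Adjusted reads of each of the 51 members in each sample, as log2 of the ratio to the mean of the 3 DMSO samples, grouped by role; blue points are DMSO and red points pladienolide B. FLNA, MYH10, FLII and MYO1C lay farthest to the left, ZYX, TLN2, MYO10 and MSN lay to the right, and MYH14, at 9.78 to 19.0 adjusted reads, scattered in both groups.

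Fewer members moved by a large amount. A fall of at least 0.5 was called for 7 members, FLNA, MYH10, FLII, MYO1C, TAGLN, PFN2 and PLEC, and no member rose by 0.5. Over all tested genes, 8.86% were called lower by at least 0.5. Just inside this limit was PLEC at −0.59 ± 0.04, and MYH9, the next member, was at −0.50 ± 0.04, just outside it before rounding. The largest rise was that of ZYX, at 0.36 ± 0.04.

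FLNA encodes filamin A, which cross-links actin filaments into networks and anchors membrane receptors to them. Its values were 41442, 40180 and 42099 adjusted reads in DMSO and 19693, 19846 and 21007 in pladienolide B. The 2 groups were far apart relative to their spread, and the difference was −1.03 ± 0.04, which left 48.9% of the DMSO mean. FLNC, the filamin best known from muscle, was also lower, at −0.30 ± 0.04. The ratio of FLNA to FLNC within a sample was 0.891 to 0.920 in DMSO and 0.524 to 0.570 with treatment. FLNA thus had the larger relative fall of the pair, and the ratio did not overlap between groups. The actinins, which bundle antiparallel filaments, moved little. ACTN1 was at −0.08 ± 0.04 and ACTN4 at 0.10 ± 0.04, neither called, although neither gene's groups overlapped. ACTN4 was called in 6 of the 15 alternative settings and ACTN1 in 1.

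FLNA was 1 of 6 members whose promoter window held a CArG box, and the stretches around the boxes are shown because this element is the SRF site named above. Windows of 250 bases before to 50 bases after a start site came from RefSeq (GRCh38.p14), and 44 of the 51 members had at least 1 window. ACTB, VIL1, MYL9, TAGLN, PFN2, PLEC and FSCN1 had no entry. The CArG box was searched in its strict form, which reads the same way on both strands. In all, 454 of 35116 windows (1.29%) held it, as did 6 of the 77 windows of the members, 1 each for FLNA, ACTG1, TPM4, MYO1E, CNN2 and ACTN1. In the stretches, written 5′ to 3′ on the strand of the gene, the box is in capitals:
FLNA, chrX:154374669-154374778, minus strand: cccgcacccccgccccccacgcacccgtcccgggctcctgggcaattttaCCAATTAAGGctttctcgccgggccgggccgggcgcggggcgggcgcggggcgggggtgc
ACTG1, chr17:81512874-81512903, minus strand: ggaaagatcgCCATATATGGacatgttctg
TPM4, chr19:16067315-16067424, plus strand: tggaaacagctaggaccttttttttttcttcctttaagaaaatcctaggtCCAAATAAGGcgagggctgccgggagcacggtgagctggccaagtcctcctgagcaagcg
MYO1E, chr15:59372872-59372952, minus strand: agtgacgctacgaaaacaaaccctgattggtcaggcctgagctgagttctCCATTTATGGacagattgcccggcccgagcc
CNN2, chr19:1026469-1026578, plus strand: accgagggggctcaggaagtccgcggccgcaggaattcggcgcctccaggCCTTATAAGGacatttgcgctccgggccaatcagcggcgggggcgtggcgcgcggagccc
ACTN1, chr14:68977678-68977787, minus strand: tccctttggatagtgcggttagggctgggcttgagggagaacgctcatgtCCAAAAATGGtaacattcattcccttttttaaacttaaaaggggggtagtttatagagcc
Counted from the start site, the boxes began at base −94 in FLNA and ACTG1, −173 in TPM4, −31 in MYO1E, −89 in CNN2 and −171 in ACTN1. In GENCODE release 44, the stretches of CNN2 and MYO1E lay outside annotated exons, and that of FLNA lay upstream of the gene in an exon of another annotated gene. Those of TPM4 and ACTN1 lay in introns of longer transcripts of the gene, and that of ACTG1 lay in an exon of a longer transcript. The first 5 genes were called lower, at −1.03 for FLNA, −0.37 for ACTG1, −0.35 for TPM4, −0.22 for MYO1E and −0.15 for CNN2, and ACTN1, at −0.08, was not called. Of the members with a window, 5 of the 24 called lower, 1 of the 13 not called and 0 of the 7 called higher held the box, and with so few genes no link between the box and the direction is read from these counts. A match of letters is a description and not evidence that SRF binds there. MYH10, FLII and MYO1C, at −1.02, −1.01 and −0.87, had windows without it.

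The cytoplasmic actins differed in size of change. ACTB, β-actin, is often used as a reference transcript. Its values were 111878, 119179 and 104254 in DMSO and 103995, 102681 and 101204 in pladienolide B. The highest treated value lay just below the lowest DMSO value, and ACTB was not called, at −0.12 ± 0.05. It was called in 4 of the 15 alternative settings, edgeR with TMM or RLE factors, DESeq2, and without DMSO replicate 3, and left-out samples moved it between −0.17 and −0.07. ACTG1, γ-actin, had 58887, 62577 and 56362 in DMSO and 46793, 45371 and 45566 in pladienolide B, with no overlap and a difference of −0.37 ± 0.05. The ratio of ACTG1 to ACTB was 0.525 to 0.541 in DMSO and 0.442 to 0.450 with treatment. ACTB alone took 0.451% ± 0.025 (SD, n = 3) of adjusted reads in DMSO and 0.424% ± 0.0037 in pladienolide B. Per kb of transcript, ACTB and ACTG1 were the highest of the 51 members in DMSO, at 61683 and 30889 adjusted reads per kb, and MYH14 the lowest, at 1.96. Listed ACTG1 pseudogenes each held at most 0.0634% of the ACTG1 reads.

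Non-muscle myosin II is a hexamer of heavy chains, essential light chains and regulatory light chains. MYH10, the heavy chain of myosin IIB, had 6547, 6418 and 6630 adjusted reads in DMSO and 3185, 3175 and 3289 in pladienolide B. The groups were tight and separate, and the difference was −1.02 ± 0.04. MYH9, the heavy chain of myosin IIA and the more abundant of the pair per kb, had a mean of 36007 ± 467 (SD, n = 3) in DMSO and 25491 ± 689 in pladienolide B, or 70.8% of the control. Both heavy chains were lower, MYH10 by more, so the MYH10 to MYH9 ratio was 0.179 to 0.184 in DMSO and 0.125 to 0.127 with treatment. MYH14, the heavy chain of myosin IIC, had few reads in all 6 samples, at 9.78 to 19.0 adjusted reads, and is given no direction. Among the light chains, MYL9, a regulatory chain, was at −0.44 ± 0.04 and MYL6, the essential chain, at −0.26 ± 0.06. MYL12A and MYL12B, the other regulatory chains, were at 0.00 ± 0.04 and −0.04 ± 0.05 with overlapping groups. They are near-identical copies of each other, so the split of reads between them is uncertain. Within a sample, the MYL9 to MYL12A ratio was 0.751 to 0.799 in DMSO and 0.551 to 0.598 with treatment.

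Of 7 unconventional myosins, 5 were called lower, 1 higher and 1 was not called, where 25.2% of all tested genes were called lower and 22.4% higher. MYO1C, a class I myosin that tethers membranes to actin, had 13491, 13517 and 13605 in DMSO and 7010, 7392 and 7879 in pladienolide B. Its DMSO values lay close together, and the difference was −0.87 ± 0.04, to 54.9% of the control. MYO1E, of the same class, was lower by less, at −0.22 ± 0.04. MYO5A, a carrier of vesicles, was at −0.25 ± 0.05, MYO18A at −0.27 ± 0.07, and MYO9B, another unconventional myosin, at −0.17 ± 0.04. MYO10, which moves to the tips of filopodia, was the exception, with 3361 to 3545 in DMSO and 4041 to 4378 with treatment, a difference of 0.27 ± 0.04. MYO6, the motor that walks towards the minus end of the filament, was at 0.07 ± 0.04 and was not called. MYO18A shares exons with TIAF1 on the same strand, which had 15.3% as many reads in DMSO.

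Spectrins and plakins are very long proteins that scaffold the membrane skeleton and join filament systems. PLEC, plectin, which ties intermediate filaments to actin, had 20734, 19073 and 20711 in DMSO and 13286, 13767 and 13247 in pladienolide B. No values overlapped, and the difference was −0.59 ± 0.04. SPTBN1, β-spectrin, was at −0.18 ± 0.04, while its partner SPTAN1, α-spectrin, was not called at −0.09 ± 0.05. MACF1, which joins actin to microtubules and encodes the longest protein of the list at 7555 residues, was at −0.11 ± 0.04. Its call was lost in 10 of the 15 alternative settings.

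Calponins, transgelins, caldesmon and tropomyosins lie along the filament and control its access to myosin. TAGLN, transgelin, had 1033, 1075 and 1052 in DMSO and 675, 684 and 642 in pladienolide B. No treated value reached the control range, and the difference was −0.66 ± 0.06. TAGLN is overlapped over 6310 bases by PCSK7 on the other strand, which had 84.4% as many adjusted reads as TAGLN in DMSO. The strand setting of the counting is not given in the sources used here, so reads from either gene could be counted for the other, and the TAGLN value is uncertain. TAGLN2, the transgelin of non-muscle cells, was far more abundant per kb and differed by −0.36 ± 0.04. CALD1 was at −0.29 ± 0.04. CNN1 and CNN2 were at −0.27 ± 0.09 and −0.15 ± 0.06, and their calls were lost in 4 and 11 of the 15 alternative settings, while CNN3, the most abundant calponin per kb, was at 0.08 ± 0.04 and was not called. Of the tropomyosins, TPM1 and TPM4 were lower, at −0.28 ± 0.05 and −0.35 ± 0.04, and TPM2 and TPM3 were at 0.02 ± 0.04 and 0.08 ± 0.04 with overlapping groups. The tropomyosins thus split in pairs, with TPM1 to TPM2 at 1.68 to 1.69 in DMSO and 1.28 to 1.47 with treatment, and TPM4 to TPM3 at 0.975 to 1.0 and 0.722 to 0.741.

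Profilins load actin monomers onto growing filament ends, and cofilins sever old filaments. PFN2, the second profilin, had 5272, 5733 and 5244 in DMSO and 3534, 3278 and 3468 in pladienolide B. The difference was −0.66 ± 0.05, and the groups were separate. PFN1, the more abundant profilin per kb, was at −0.15 ± 0.04, and the PFN2 to PFN1 ratio was 0.296 to 0.310 in DMSO and 0.203 to 0.219 with treatment. CFL1 was at −0.01 ± 0.04, with 99.1% of its DMSO mean. CFL2 was called higher at 0.14 ± 0.06, but its groups overlapped and the call was lost in 7 of the 15 alternative settings.

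The gelsolin family contributed 1 of the largest falls and 2 members that were not called. FLII, flightless-1, had 9321, 9418 and 9424 in DMSO and 4716, 4524 and 4768 in pladienolide B. The values of each group were close together, and the difference was −1.01 ± 0.04. GSN, gelsolin, which severs and caps filaments, was at 0.05 ± 0.05, and it overlaps RAB14 over 387 bases on the other strand, which had 181% as many reads in DMSO. VIL1, villin, of microvilli, was at −0.14 ± 0.10 with 239 to 287 adjusted reads in the 6 samples, and it overlaps USP37 on the other strand, which had 310% as many reads in DMSO.

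**Figure D2:**
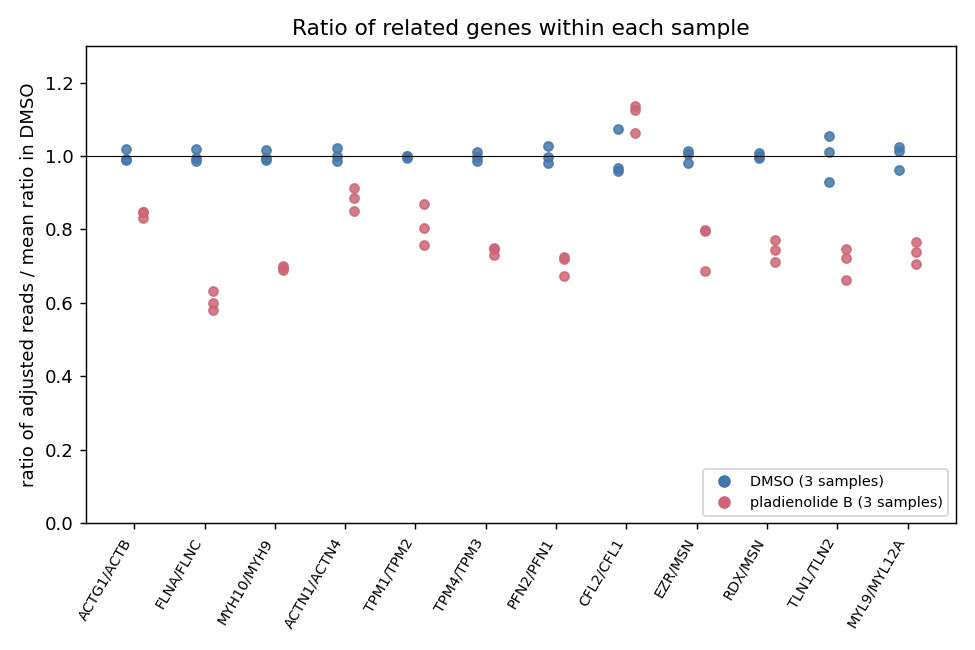
Ratio of adjusted reads of related genes within each sample, divided by the mean ratio of the 3 DMSO samples; blue points are DMSO, red points pladienolide B. The treated points lie apart from the DMSO points for 11 of the 12 ratios shown and overlap them for CFL2 to CFL1. The pairs were picked from the chosen members, and no share over other gene pairs was computed. Of all tested single genes, 55.3% did not overlap between groups, and the count of ratios is a description. Which gene was put on top sets whether a ratio falls, so the side carries no direction, and FLNA to FLNC moved farthest.

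The proteins that join filaments to adhesions and membrane were mixed. ZYX, zyxin, which gathers at stress fibres and adhesions, had 6581 to 6664 in DMSO and 8251 to 8748 with treatment, a difference of 0.36 ± 0.04. LASP1, another LIM protein, was at 0.18 ± 0.04 and VCL, vinculin, was not called at 0.04 ± 0.04. The talins went in opposite directions. TLN1 was at −0.19 ± 0.04 and TLN2, with 637 to 941 adjusted reads in the 6 samples, at 0.30 ± 0.08. The TLN1 to TLN2 ratio was 15.7 to 17.8 in DMSO and 11.2 to 12.6 with treatment. The ERM proteins divided as well, with EZR at −0.18 ± 0.04, RDX at −0.20 ± 0.04 and MSN at 0.23 ± 0.04. The EZR to MSN ratio was 2.10 to 2.17 in DMSO and 1.47 to 1.71 with treatment. DIAPH1, a formin that nucleates unbranched filaments, was at 0.17 ± 0.04, and FSCN1, fascin, which bundles filopodial filaments, was at 0.02 ± 0.04 with overlapping groups.

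Large crosslinkers and myosins were set against small actin-binding proteins. The large class held the 18 actinins, filamins, spectrins, plakins and myosin heavy chains, and the small class held the 18 light chains, tropomyosins, calponin family members, cofilins, profilins and LASP1. Of the large genes 12 were called lower, 1 higher and 5 were not called, and of the small genes 10 were called lower, 2 higher and 6 were not. Of all tested genes, 25.2% were called lower and 22.4% higher, and 62.5% of those with a mean of at least 1000 adjusted reads were called. The counts by class are descriptions. The medians were close, at −0.20 for the large and −0.15 for the small class. The SD of a class median between the 3 treated samples was 0.013 for the large and 0.044 for the small class, and no test was made since both classes came from the chosen list. The lowest value was −1.03 in the large and −0.66 in the small class, and 4 large and 2 small genes were lower by at least 0.5, 1 of the latter being TAGLN, whose value is uncertain. Of all tested genes, 8.86% were called lower by that much. Without DMSO replicate 2, the sample that deviated most with transcript length, the medians were −0.22 and −0.13, and without DMSO replicate 3 they were −0.17 and −0.17, so the small gap between the classes varied with the sample left out. In DMSO replicate 2 itself, the median deviation from the DMSO mean was −0.04 for large and 0.06 for small genes. In reads, the large class fell from 1.06% ± 0.038 (SD, n = 3) to 0.843% ± 0.019 of all adjusted reads and the small class went from 0.745% ± 0.022 to 0.704% ± 0.00073. Such shares weigh abundant genes most, and FLNA alone went from a mean of 41240 to 20182 adjusted reads. They are therefore no contrast of the classes as a whole.

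**Figure D3:**
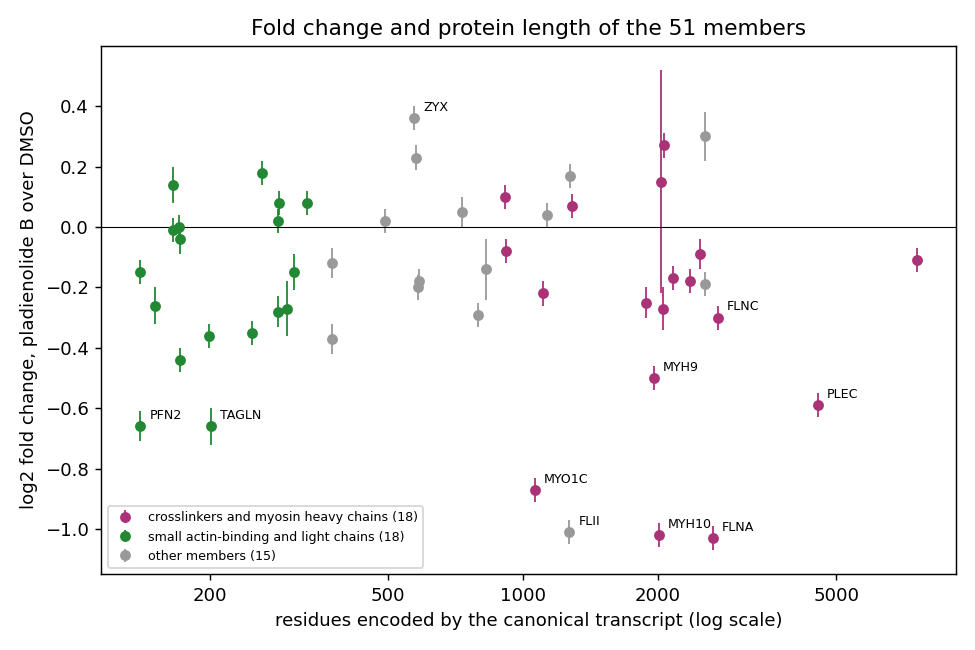
Log2 difference of each member (pladienolide B minus DMSO, bars ± SE, n = 3 per group) against the number of residues its canonical transcript encodes, on a log axis, coloured by class. Points from −1.03 to 0.27 in the large class and −0.66 to 0.18 in the small class show the overlap of the classes, and the long bar belongs to MYH14.

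Over the 51 members, Spearman's correlation between the log2 difference and the number of residues was −0.04, and with the number of exons it was −0.04. Since pladienolide B acts on splicing, introns were counted too, in the canonical GENCODE transcript. FLNA had 35 introns under 200 bases of 47 (74.5%), PLEC 20 of 31, FLII 15 of 29 and MYO1C 14 of 31. Genes with smaller or opposite differences had similar shares, such as TLN1 with 30 of 56, FLNC with 23 of 47 and ZYX with 5 of 9, and MYH10 had 4 of 42. Spearman's correlation between the share of short introns and the log2 difference was −0.20 over the members and −0.04 over 14484 tested genes. Other features gave values of similar size over the members, 0.22 for the span of the gene, 0.18 for the median intron and −0.17 for GC content. The features are related to each other, and a role of intron length was not tested. These correlations are across genes that share the same libraries and are descriptions.

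Other actin regulators, none of them members, were examined in the same fit. Their lists, too, were drawn up with earlier results of these data known. The adjusted p-values given below for single regulators thus describe these genes and are not independent evidence. Of 131 listed genes, 119 were tested and 52 (43.7%) were called, 34 lower and 18 higher, where 47.6% of all tested genes were called, 25.2% lower and 22.4% higher. The regulators were thus called at about the background rate, and the counts by list are descriptions. Of the 10 ARP2/3 complex genes, which make branched networks, 4 were called lower and 1 higher. The WASP and WAVE activators of that complex gave 6 higher and 3 lower of 14 tested. Capping and monomer-binding proteins gave 3 lower and none higher of 17, formins and Ena/VASP 5 lower and 1 higher of 13, other crosslinkers and spectrins 4 lower and 3 higher of 18, and other myosins 5 lower and none higher of 19.

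Of the 119 tested regulators, 7 were called lower by at least 0.5 and none higher by that much, and the 7 are no larger a share than the 8.86% of all tested genes called lower by at least 0.5. CYFIP2, a subunit of the WAVE complex, went from 114 to 152 adjusted reads in the DMSO samples to 53.2 to 61.1 in the treated samples (−1.17 ± 0.16, limma adjusted p = 1.7e-05). CIT, citron kinase of the cytokinetic ring, had means of 2751 and 1467 (−0.91 ± 0.06, limma adjusted p = 1.6e-09). Both genes were lower in all treated samples than in any DMSO sample. The motors MYO7B of microvilli and MYO19 of mitochondria were at −0.95 ± 0.06 and −0.53 ± 0.05 (limma adjusted p = 3.6e-09 and 1e-07), and UTRN, utrophin, was at −0.55 ± 0.05 (limma adjusted p = 2.8e-07). ACTC1, cardiac actin, was at −0.92 ± 0.20 (limma adjusted p = 0.0011) with only 77.1 mean adjusted reads in DMSO. It is closely related to the far more abundant ACTB and ACTG1, so its reads are uncertain. Of the 4 muscle actins listed, 2 were tested, and the other of these, ACTA2, was at 0.01 ± 0.21 and was not called. SRF itself was higher, from 821 ± 57.1 (SD, n = 3) to 985 ± 16.9, at 0.26 ± 0.06 (limma adjusted p = 0.0023). Its cofactor genes were at 0.13 ± 0.05 for MRTFA, which missed the threshold (limma adjusted p = 0.056) but passed it in 3 of the 15 alternative settings, all edgeR fits, and −0.17 ± 0.05 for MRTFB (limma adjusted p = 0.016), a call that 5 of the 15 alternative settings lost.

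**Figure D4:**
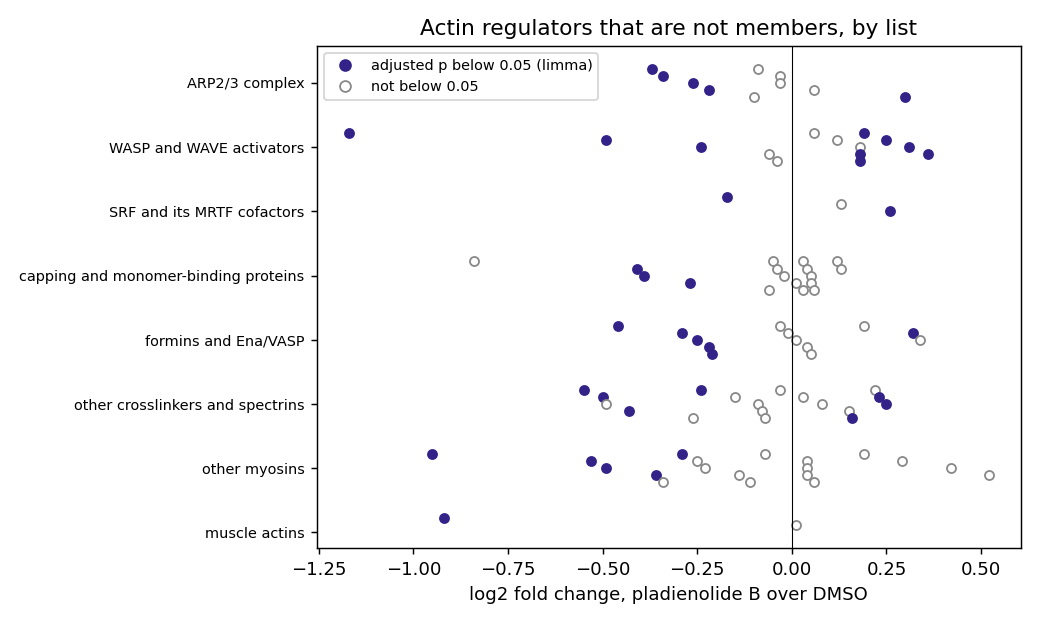
Log2 difference (pladienolide B minus DMSO) of the tested actin regulators in 8 of the lists; filled points have a limma adjusted p below 0.05 and open points do not. CYFIP2 at −1.17 is the leftmost filled point, and no filled point lies at or above 0.5.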

How the data were processed

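Reads from 6 samples were trimmed and aligned with HISAT2 to hg38 according to the methods; the submitters' notes name HISAT2, HTSeq 0.12.4, DESeq2 and hg19. Gene positions in the table overlapped GENCODE release 44 (GRCh38) for 99.96% of 26988 matched genes. The authors deposited normalized signal values per gene with log2 fold changes, p-values and q-values of their comparison, and the latter 3 were not used. The signal values were adjusted reads of edgeR type. Undoing the adjustment (common dispersion 0.002698) gave whole reads, within 0.02, for 100% of 96432 values of at least 10.

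The members and the gene lists were chosen with earlier results of these data known. Values were tested as log2(value + 1) with limma 3.58.1 (variance trend, R 4.3.3), two-sided, after edgeR's filterByExpr (minimum count 10, total 15), with Benjamini-Hochberg adjustment over 16178 genes. Alternatives were other filters, a pseudocount of 0.1, edgeR 4.0.16 and DESeq2 1.42.0 on recovered reads, a replicate block, each sample left out, and limma without trend, the last chosen after seeing the data. On the recovered reads, edgeR with TMM factors called 7738 genes, 36 of them members. Fits were also run on simulated data in which far fewer genes changed than were called here, so that run does not vouch for these calls. Values in every sample were printed for members called with a difference of at least 0.5, and for ACTB and ACTG1, with other members as ranges, means or differences. Regulators were named when called at that size, at most 3 in each direction per list, and SRF, MRTFA and MRTFB in any case, and the counts of 1 list and 1 such gene are not reported here; PCSK7, USP37, RAB14, TIAF1 and the marker genes were named after their values were seen. Residues, introns and lengths came from the canonical GENCODE transcript. No column of another sample was present (0).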

Additional observations from a re-analysis of the deposited data

How the results depend on the processing

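The number of members called, 35, ranged from 28 (limma without the variance trend) to 36 (edgeR with TMM factors) over the alternatives that kept all samples. Left-out samples gave 31 to 39 members called (6 to 10 higher, 25 to 29 lower) and 46 to 62 regulators, the highest of each without DMSO replicate 2. The median of the large class, −0.20, was −0.22 with at least 10 adjusted reads in every sample, a setting that drops MYH14, −0.18 with upper-quartile factors and −0.18 with classes by number of residues; left-out samples gave −0.22 to −0.17 for the large and −0.17 to −0.13 for the small class, and without DMSO replicate 3 the medians were −0.17 and −0.17. The cause was not tested for the other settings. Of 914 values for 61 single genes, 856 kept their side of the threshold, 40 lost the call (MYL6, MYO18A, TLN2, CNN1, CNN2, CFL2, MACF1 and MRTFB) and 18 gained it (ACTB, ACTN1, ACTN4, TPM3, CNN3, SPTAN1 and MRTFA). Called values did not change direction. With a sample left out, which also lowers n, CNN1 lost its call without DMSO replicate 1, plaB replicate 2 or plaB replicate 3 (−0.22 each), CNN2 without DMSO replicate 1 (−0.13), DMSO 2 (−0.12), plaB 1 (−0.14) or plaB 2 (−0.10), and MACF1 without DMSO 1, DMSO 3, plaB 1 or plaB 2 (−0.10 each). CFL2 lost it without any one sample other than DMSO 2 (0.09 to 0.16), and MRTFB without DMSO 1, DMSO 3, plaB 1 or plaB 2 (−0.16 to −0.15). ACTN1 (−0.08), ACTN4 (0.11), CNN3 (0.11), SPTAN1 (−0.14) and TPM3 (0.12) gained it without DMSO 2, ACTN4 (0.14) also without plaB 2, and ACTB (−0.17) without DMSO 3. With all samples kept, ACTB also gained it with edgeR TMM or RLE factors and DESeq2.

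Over all tested genes, same-numbered samples of both groups did not deviate together (correlations −0.02, −0.02 and 0). These values cannot exclude a pairing, since genes with few reads count as much as the others. With a replicate block 33 members were called, 26 lower and 7 higher, and 51 regulators. CNN2 and MACF1 lost their calls there.

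With 3 samples per group and these depths, precision is lowest for MYH14 (9.78 to 19.0 adjusted reads), VIL1 and CNN1.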
